A study of Sus scrofa with 6 samples.

Results

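The transcripts described here encode the initiation and elongation factors of cytosolic translation and the proteins that bind or modify them. They were taken from the deposited table of porcine endometrial epithelial cells by symbol, as every row whose name starts with EIF1 to EIF6, EEF1 or EEF2, which gave 49 of the 10915 genes with values. The cells were epithelium from the uteri of slaughtered pigs, grown in primary culture to passage 3. In the exosome group (3 libraries) each well received 10 µg of exosomes, membrane vesicles precipitated from the sperm-rich fraction of boar seminal fluid, and was kept so for 48 h. The control group (3 libraries) received no exosomes, and the labels name no mock precipitate for it. All 6 libraries share this culture. The labels leave unsaid whether a replicate is its own uterus or only its own well, so a p-value here weighs the spread among these libraries alone, and that spread may be technical. The values are FPKM, which divide the fragments of a gene by its length and by the size of the library, so levels can be set side by side between genes. The depth is unknown, since the table gives no counts.

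Protein synthesis starts when the small ribosomal subunit, loaded with the initiator tRNA by eIF2 and held open by eIF1, eIF1A and eIF3, is brought to the capped end of an mRNA by the eIF4F complex and scans to a start codon. eIF5B then joins the large subunit, and the eEF1 and eEF2 factors bring in each aminoacyl-tRNA and move the ribosome along. Cells commonly set the rate of initiation at eIF2, whose phosphorylation by stress kinases blocks its recycling by eIF2B, and at eIF4E, which hypophosphorylated 4E-BP proteins sequester. Both controls act mainly through phosphorylation, which RNA levels do not measure.

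The translation factors differed little between exosome and control libraries, and none passed the test over all genes. In limma, 0 of the 49 had an adjusted p under 0.05, against 0 of all 10846 genes tested (0% called). At an unadjusted p under 0.05 there was 1 member, EIF5B, which was higher, where 12.6% of all genes tested lay under that p (5.06% higher and 7.5% lower). Of the members, 28 had a positive and 21 a negative log2 change, with a median of 0.02 against -0.0023 over all genes tested. The log2 changes, of log2(FPKM + 1), ran from -0.19 (EIF4E3) to 0.14 (EIF5B). Their median size was 0.045, against 0.08 over all genes tested, and it was under 0.1 for 44 of the 49, as it was for 60.0% of all genes tested. The members were also more abundant and steadier than most genes: their median level was 66.2 FPKM against 15.0, and their median coefficient of variation among the control libraries was 2.57% against 5.30%. The part of level and spread in the small size of the changes was not tested.

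**Figure D1:**
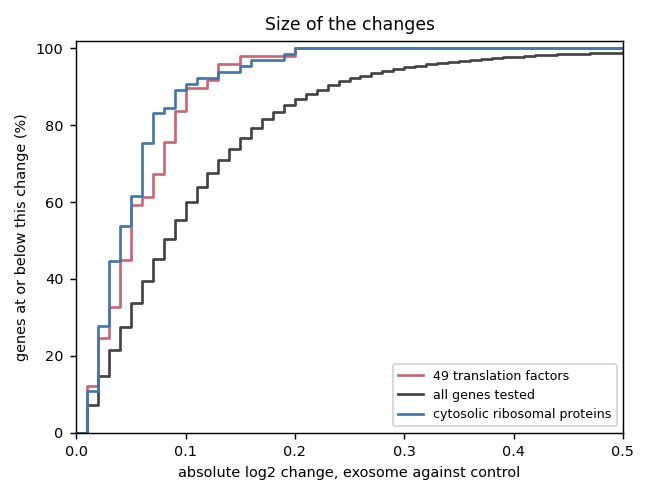
Cumulative share of genes (vertical axis, percent) whose absolute log2 change between exosome and control lies at or below the value on the horizontal axis, for the 49 translation factors, all genes tested and the cytosolic ribosomal proteins. The lines of the translation factors and of the ribosomal proteins climb faster than that of all genes.

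These small differences can be bounded for the values as deposited. The 95% intervals of the members' log2 changes reached 0.134 to either side in the median, and from 0.0898 to 0.344. For 45 of the 49 the whole interval lay within a 1.25-fold change of FPKM + 1 in either direction, as it did for 63.9% of all genes tested. This limit was chosen after the values were seen, and for low genes it allows a larger fold change of FPKM itself. The 4 others were the scarce members EIF2C3, EIF2AK2, EIF4EBP3 and EIF4E3. The interval of EIF4E3 ran from -0.40 to 0.01 and that of EIF2AK2 from -0.24 to 0.44, so larger changes of these genes could not be told from none at this precision. In other settings intervals were looked at only for members at an unadjusted p under 0.05, so further members may have passed this limit unseen. Among those looked at, some further intervals passed it (0.322 on the log2 scale). That of EIF3J reached 0.327 with equal FPKM sums. Without exosome replicate 2 those of EIF1AX, EIF2AK3 and EIF4G2 reached 0.335, -0.360 and -0.328.

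**Figure D2:**
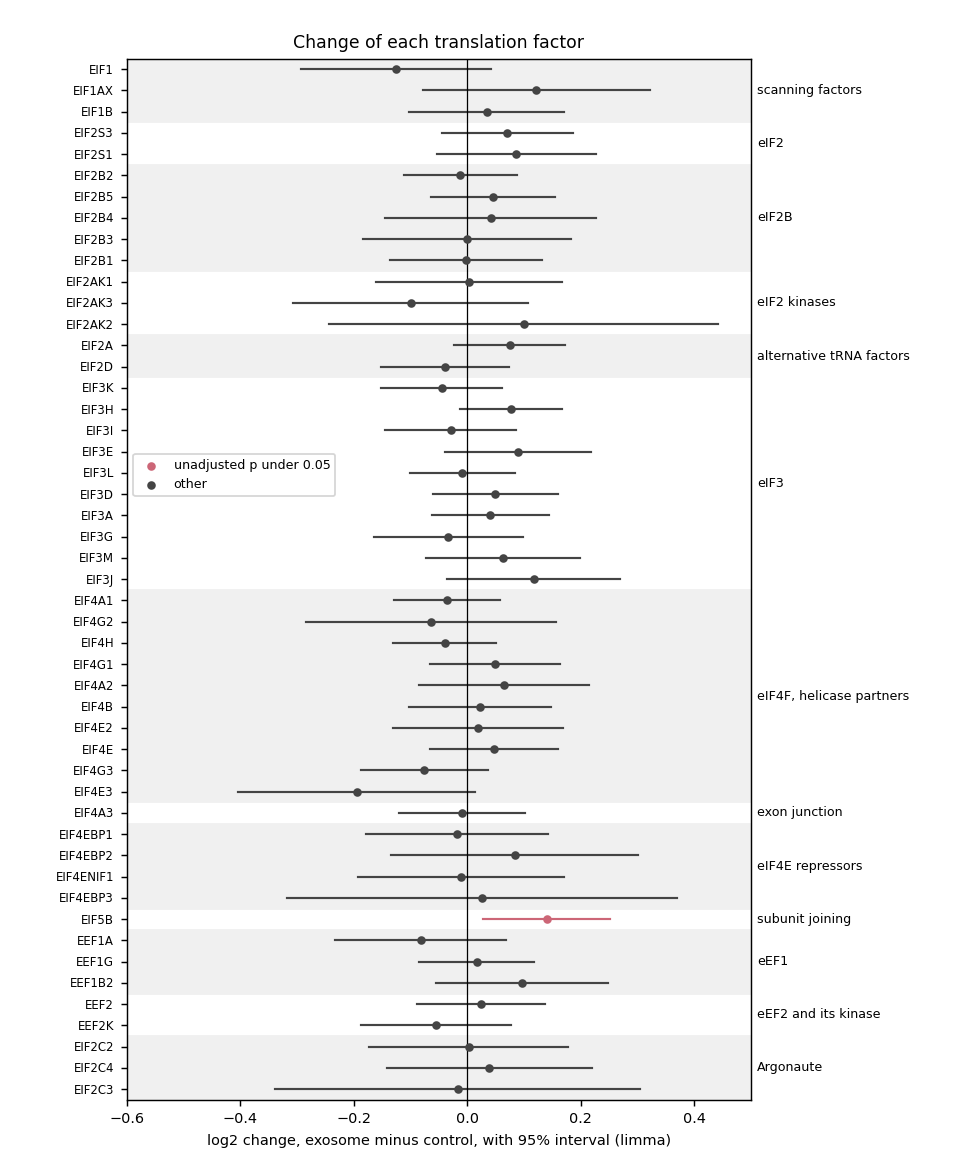
Log2 change of each translation factor (exosome minus control, horizontal axis) with its 95% interval from limma, grouped by complex. EIF5B, in red, is the member whose interval leaves out 0 (0.03 to 0.25).

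The groups did not overlap in their FPKM totals or in the sum of epithelial markers. The FPKM of a library summed to 728438 ± 6270 for the control and to 703263 ± 11360 for the exosome group (SD, n = 3). The two-sided exact permutation p was 0.1, the smallest that 3 against 3 allows. When each library was scaled to the same sum, the median log2 change of all genes became 0.04, 42 of the 49 members had a positive change and 6 lay at an unadjusted p under 0.05 in limma, all higher (EIF5B, EIF3H, EIF2A, EIF3E, EIF3J and EEF1B2), where 13.9% of all genes did. With quantile normalization the members at that p were 2 (EIF5B and EIF3H) and the share of all genes 12.5%. With equal FPKM sums the split of all genes at that p turned from 549 higher and 813 lower to 1090 higher and 420 lower. With quantile normalization it was 651 higher and 706 lower. Directions below are those of the values as deposited. Where the log2 change of a member is given and this or another scaling turns its sign, the text says so. For genes outside the 49 this is not stated. Exosome replicate 2 stood nearer the controls than the other exosome libraries did in 24 of the 49 members (42.9% of all genes tested). Epithelial keratins marked the culture, with KRT8 at 3037 ± 48.0 and KRT19 at 3193 ± 88.8 FPKM in the control libraries (SD, n = 3). Of 8 epithelial markers, 7 were tested, and their summed level was 9203 to 9532 FPKM in the control and 8133 to 8941 with exosomes, without overlap. KRT8, KRT19 and KRT18 made up the most of this sum. Of the 7 markers, 4 were lower at an unadjusted p under 0.05 in limma (ELF3, CLDN4, MUC1 and KRT8), where 7.5% of all genes tested were. After adjustment 0 passed. The groups of KRT19, KRT18 and EPCAM overlapped, with log2 changes of -0.13, -0.04 and 0.05, EPCAM being the 1 marker with a positive change. Of 9 stromal markers, 4 were tested (VIM, COL1A1, COL1A2 and COL3A1), with sums of 562 to 678 and 505 to 597 FPKM, of which VIM made up the most. The collagens were uneven within both groups: COL1A1 was at 2.48, 30.0 and 14.7 FPKM in control replicates 1 to 3 and at 20.4, 6.27 and 0.887 FPKM in exosome replicates 1 to 3, and COL3A1 ran from 0.114 to 2.05 FPKM over the 6 libraries. The stromal markers PDGFRA, PDGFRB, DCN and LUM had no row. The endothelial markers PECAM1, VWF and CDH5 had no row either, so their level is not analysed here. For the 6 leukocyte markers 4 rows were found, of which 3 were tested, without PTPRC. These 3 summed to 9.01 to 11.9 FPKM over the 6 libraries. The endothelial marker KDR was at 1.26 to 1.96 FPKM in the control and 0.968 to 1.16 with exosomes, and the smooth muscle marker TAGLN at 127 to 141 and 78.5 to 140.1 FPKM. The part of cell composition in any difference below was not tested, and in bulk RNA fewer cells of a type and less RNA per cell cannot be told apart.

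**Figure D3:**
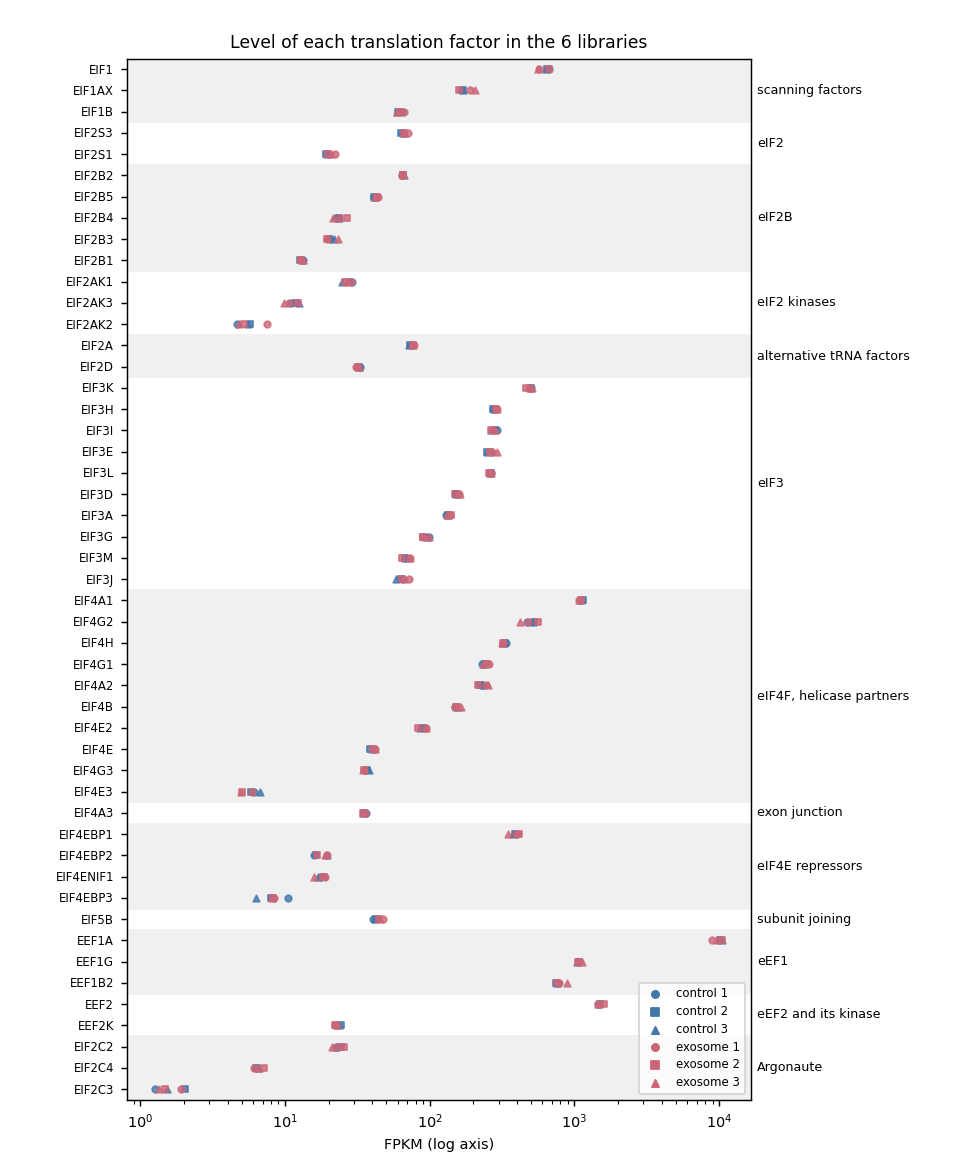
FPKM of each translation factor in the 6 libraries (log axis), grouped by complex; colour gives the group and shape the replicate. Levels span from 1.59 FPKM (EIF2C3) to 9952 FPKM (EEF1A) on average, and the 6 points of most genes lie on top of each other at this scale.

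The subunit joining factor EIF5B (ENSSSCG00000008180; chromosome 3, 54861759 to 54930826 in RefSeq on Sscrofa11.1) was the member that came nearest to a call. EIF5B is the GTPase that joins the large ribosomal subunit to the small one at the start codon. It was at 40.5, 42.4 and 41.6 FPKM in control replicates 1, 2 and 3, and at 47.1, 44.8 and 45.5 FPKM in exosome replicates 1, 2 and 3. All 3 exosome libraries lay above all 3 control libraries, with means of 41.5 ± 0.926 and 45.8 ± 1.19 FPKM (SD, n = 3), a log2 change of 0.14 (SE 0.048). This did not pass in limma (unadjusted p = 0.0202, adjusted p = 0.330). Its log2 change was positive in each of the 14 alternatives run, from 0.12 to 0.19, and its unadjusted p rose above 0.05 without control replicate 1 (0.0684), control replicate 3 (0.0545) or exosome replicate 1 (0.0598).

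**Figure D4:**
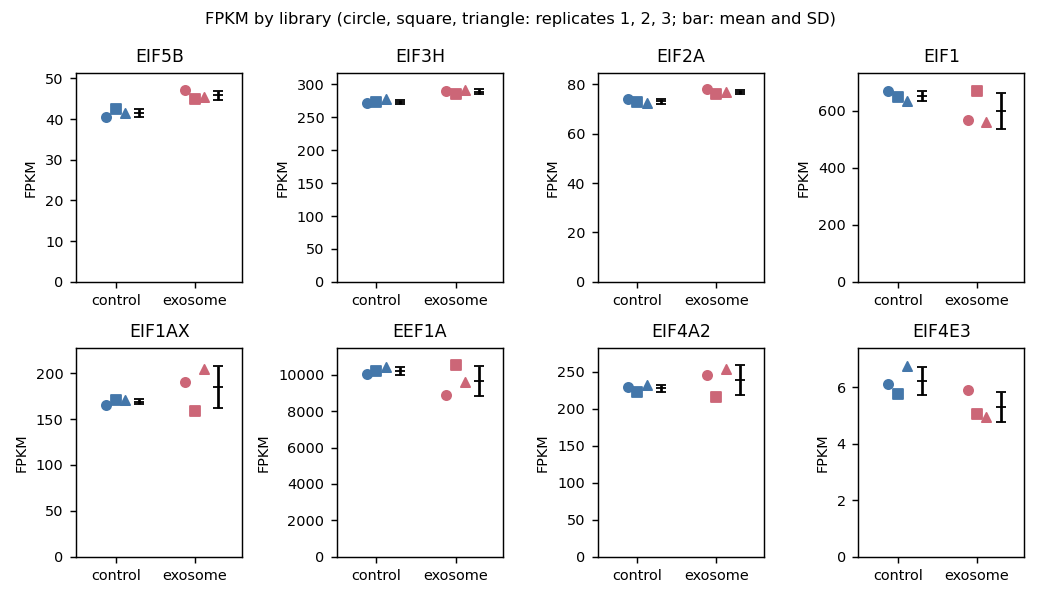
FPKM of 8 translation factors in each library (vertical axes start at 0), with the mean and SD of each group beside the points. EIF5B, EIF3H and EIF2A are higher in all 3 exosome libraries, whereas in EIF1, EIF1AX, EEF1A and EIF4A2 exosome replicate 2 (square) lies apart from exosome replicates 1 and 3.

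Among the scanning factors, EIF1 and EIF1AX stood on opposite sides of the control in exosome replicates 1 and 3. EIF1 (ENSSSCG00000017430), which keeps the scanning subunit from starting at wrong codons, was at 671, 649 and 635 FPKM in control replicates 1 to 3 and at 567, 671 and 561 FPKM in exosome replicates 1 to 3. Exosome replicates 1 and 3 lay below all controls and exosome replicate 2 within them. EIF1AX (ENSSSCG00000012162), the X-linked gene of eIF1A, was at 165, 170 and 170 FPKM in the control and at 191, 159 and 204 FPKM in the exosome libraries. Here exosome replicates 1 and 3 lay above all controls and exosome replicate 2 below them. The log2 changes were -0.13 for EIF1 and 0.12 for EIF1AX, with adjusted p-values of 0.513 and 0.591 in limma. Without exosome replicate 2 they were -0.21 and 0.22, at adjusted p-values of 0.0526 and 0.0613, so neither passed then. EIF1B, a close paralog of EIF1, was at 61.5 ± 2.75 and 63.0 ± 3.47 FPKM in control and exosome libraries (SD, n = 3), and the ratio of EIF1 to EIF1B was 10.6 ± 0.179 in the control against 9.53 ± 1.12 in the exosome libraries, with overlapping groups. Reads of such near copies can be split between them by the authors' counting, so their separate levels are uncertain.

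The eIF2 complex, its exchange factor and its kinases showed no difference past the test. EIF2S1, the alpha subunit that the stress kinases phosphorylate, was at 20.1, 19.1 and 19.4 FPKM in the control and at 22.0, 19.7 and 20.9 FPKM in the exosome libraries. These groups overlapped, with a log2 change of 0.09 (adjusted p = 0.582 in limma). EIF2S3, the X-linked gamma subunit that binds GTP and the initiator tRNA, was at 65.8, 63.1 and 64.8 FPKM in the control and at 71.2, 66.4 and 66.0 FPKM in the exosome libraries. The exosome values of EIF2S3 lay above all controls, by a margin of under 1 FPKM between the nearest libraries (log2 change 0.07, adjusted p = 0.588). The beta subunit EIF2S2 had no symbol in the table, so it lies outside the 49, and was identified by its gene ID in the reference names. It was at 178 ± 2.43 and 185 ± 5.18 FPKM in control and exosome libraries (log2 change 0.05, adjusted p = 0.640 in limma).

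Of the 5 subunits of eIF2B, the complex that reloads eIF2 with GTP, 2 had a positive and 3 a negative log2 change, with a median of -0.00027. EIF2B2, the beta subunit and the most abundant of the 5, was at 64.7, 65.6 and 65.8 FPKM in the control and at 64.1, 65.1 and 65.3 FPKM in the exosome libraries, almost the same level in all 6. EIF2B5, the catalytic epsilon subunit, was at 41.6 ± 0.491 and 42.9 ± 1.15 FPKM (SD, n = 3), the smallest p of the 5 (adjusted p = 0.719). The negative changes of EIF2B1, EIF2B2 and EIF2B3 were under 0.02 in size and turned positive with equal FPKM sums and with quantile normalization.

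Of the kinases of eIF2 that were measured, the heme-sensing EIF2AK1 (HRI) was the most abundant, at 27.2 ± 2.18 FPKM in the control against 27.2 ± 1.17 in the exosome libraries (SD, n = 3). EIF2AK3 (PERK), the sensor of misfolded protein in the endoplasmic reticulum, was at 11.8 ± 0.688 FPKM in the control and at 10.6, 12.4 and 9.90 FPKM in exosome replicates 1 to 3, of which replicates 1 and 3 lay below all controls (log2 change -0.10, adjusted p = 0.675). EIF2AK2 (PKR), the double-stranded RNA sensor induced by interferon, was at 4.67, 5.70 and 5.56 FPKM in the control and at 7.51, 5.20 and 4.81 FPKM in the exosome libraries. Exosome replicate 1 alone was high in EIF2AK2, and without it the log2 change turned from 0.10 to -0.07. EIF2A and EIF2D, single-chain proteins reported to deliver initiator tRNA without eIF2, differed in sign. EIF2A was at 74.1, 72.8 and 72.4 FPKM in the control and at 78.0, 76.3 and 76.9 FPKM in the exosome libraries. All 3 exosome values of EIF2A lay above the controls, by 5.40% on the means, which did not pass (log2 change 0.07 with an SE of 0.042, adjusted p = 0.508). EIF2D was at 32.7 ± 0.295 and 31.8 ± 0.862 FPKM (log2 change -0.04), a direction that equal FPKM sums turned.

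eIF3, the largest initiation factor, holds the small subunit and the mRNA. Of 10 measured subunits 6 had a positive and 4 a negative log2 change, with a median of 0.05, and 0 passed in limma, 0 also at an unadjusted p under 0.05. EIF3H (ENSSSCG00000006016), a subunit of the structural core, was at 272, 273 and 277 FPKM in the control and at 290.1, 286 and 292 FPKM in the exosome libraries. Its groups did not overlap, and it had the smallest p of the complex (log2 change 0.08 with an SE of 0.039, adjusted p = 0.449). EIF3J, a loosely bound subunit, was at 65.0, 63.6 and 58.0 FPKM in the control and at 72.1, 63.8 and 66.8 FPKM in the exosome libraries, with an overlap (log2 change 0.12, adjusted p = 0.504). EIF3E was at 267, 251 and 251 FPKM in the control and at 267, 259.8 and 291 FPKM in the exosome libraries, where exosome replicate 3 was the highest (log2 change 0.09, adjusted p = 0.539). EIF3K, the most abundant subunit, was at 504, 504 and 494 FPKM in the control and at 484, 465 and 508 FPKM with exosomes (log2 change -0.04, adjusted p = 0.718), a sign that equal FPKM sums turned.

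The other positive changes were those of EIF3M, EIF3D and EIF3A (0.06, 0.05 and 0.04). The other negative ones were those of EIF3G, EIF3I and EIF3L (-0.03, -0.03 and -0.0083), which turned with equal sums. That of EIF3L also turned with quantile normalization (0.0055). EIF3M was nearly constant in the control, at 67.0, 67.1 and 67.2 FPKM, and at 73.4, 64.6 and 72.8 FPKM in the exosome libraries. Exosome replicate 2 had the lowest level of the exosome libraries in 8 of the 10 subunits, where it was the lowest in 37.7% of all genes tested. Relative to the control mean, the median of the 10 subunits was 0.06, -0.03 and 0.07 on the log2 scale in exosome replicates 1, 2 and 3, and -0.01 to 0.02 in the control libraries. By mean level over the 6 libraries the order was EIF3K (493 FPKM), EIF3H (282), EIF3I (277), EIF3E (264), EIF3L (263), EIF3D (154), EIF3A (134), EIF3G (93.9), EIF3M (68.7) and EIF3J (64.9). Neighbours from EIF3H to EIF3L overlapped in their 6 libraries, as did EIF3M and EIF3J.

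**Figure D5:**
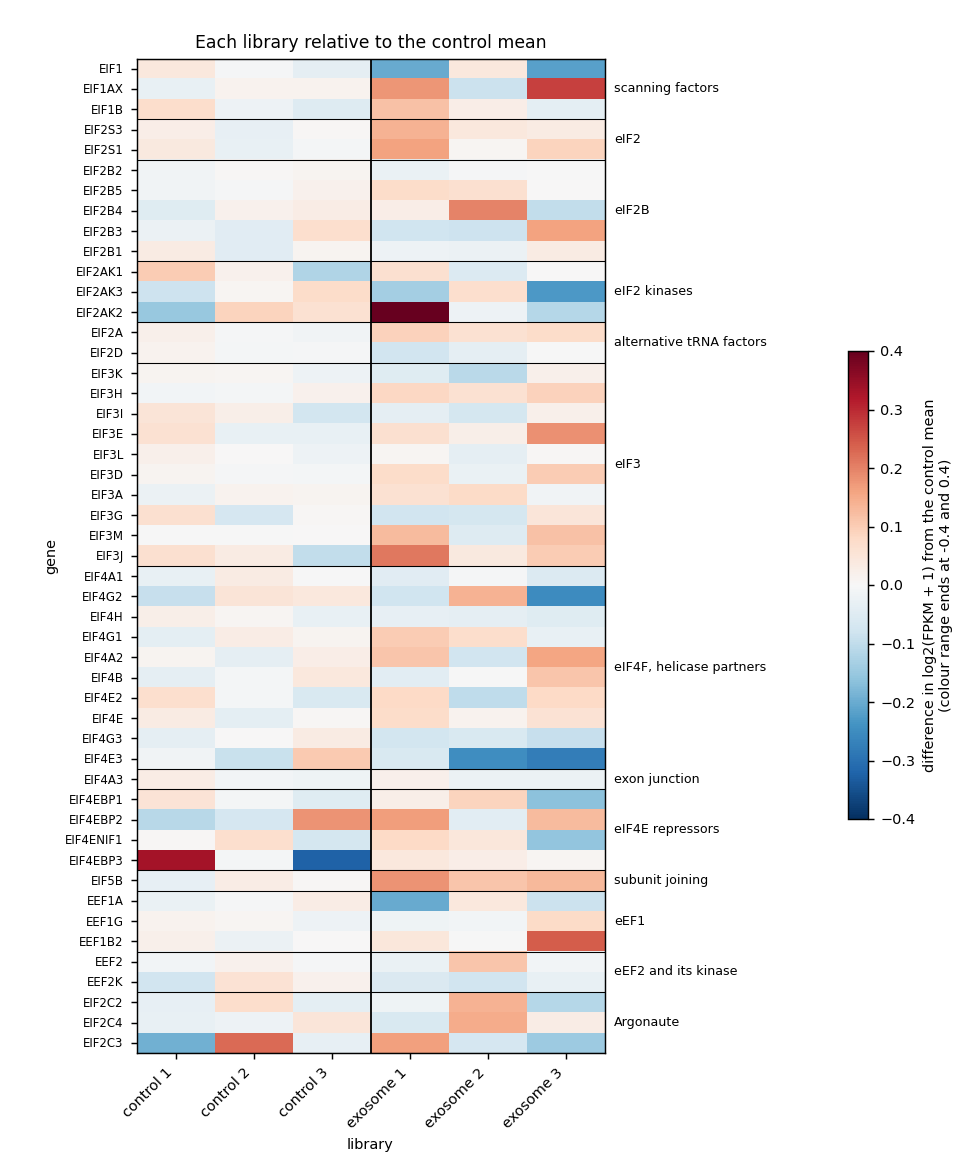
Difference of each library from the control mean in log2(FPKM + 1), with 1 row per translation factor grouped by complex and 1 column per library; red is higher and blue lower than the control mean. Exosome replicate 2 is the palest or the opposite colour of exosome replicates 1 and 3 in EIF1, EIF1AX, EIF3M, EIF4A2 and EEF1A, and EIF5B is red in all 3 exosome libraries.

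The cap-binding complex eIF4F joins a cap-binding protein, a scaffold and a helicase. With the helicase cofactors it had 10 members, 5 with a positive and 5 with a negative log2 change, a median of -0.0077, and 0 past limma's test (0 at an unadjusted p under 0.05). EIF4E, the main cap-binding protein, was at 40.9, 38.9 and 40.1 FPKM in the control and at 42.1, 40.3 and 41.6 FPKM in the exosome libraries, overlapping (log2 change 0.05, adjusted p = 0.713). EIF4E2, a cap-binding homolog with repressive roles, was at 88.9 ± 3.98 and 90.2 ± 6.46 FPKM (SD, n = 3). The scarcer homolog EIF4E3 (ENSSSCG00000011516) was at 6.14, 5.78 and 6.75 FPKM in the control and at 5.92, 5.07 and 4.95 FPKM in the exosome libraries. It had the largest fold difference of the 49 members, with means 14.6% apart, yet control replicate 2 lay below exosome replicate 1 (log2 change -0.19 with an SE of 0.090, adjusted p = 0.418).

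The log2 changes of the scaffolds differed in sign. EIF4G1, the main scaffold, was at 231, 242 and 239 FPKM in the control and at 255, 249 and 233 FPKM in the exosome libraries, an overlap through exosome replicate 3 (log2 change 0.05, adjusted p = 0.715). EIF4G3, its less abundant paralog, was at 35.9, 36.9 and 37.8 FPKM in the control and at 35.0, 35.3 and 34.5 FPKM in the exosome libraries, all below the controls (log2 change -0.08, adjusted p = 0.552). The ratio of EIF4G1 to EIF4G3 within each library does not change when all values of the library are multiplied by the same factor. This ratio was 6.43, 6.55 and 6.32 in the control and 7.27, 7.06 and 6.74 in the exosome libraries. It was higher in all 3 exosome libraries, the 1 pair of the 7 compared whose groups did not overlap. EIF4G3 alone already did not overlap, so the ratio is no separate observation. Among single genes, 18.7% of all tested did not overlap, and no such share was computed for ratios. The exact permutation p of a pair cannot go below 0.1 with 3 against 3, so the ratio was not tested. EIF4G2 (DAP5), a scaffold that lacks the cap-binding protein's site, was at 473, 523 and 519 FPKM in the control and at 478, 556 and 424 FPKM in the exosome libraries. Its exosome libraries spanned the whole control range (log2 change -0.06, adjusted p = 0.813), and its sign turned without exosome replicate 3 (0.03).

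EIF4A1, the abundant helicase that unwinds the leader of mRNAs, was at 1092, 1141 and 1113 FPKM in the control and at 1080.3, 1111 and 1074 FPKM with exosomes (log2 change -0.04, adjusted p = 0.749; 0.02 with equal FPKM sums and with quantile normalization). Its paralog EIF4A2 was at 229, 222 and 232 FPKM in the control and at 246, 216 and 254 FPKM in the exosome libraries, with exosome replicates 1 and 3 above all controls and exosome replicate 2 below them. The ratio of EIF4A1 to EIF4A2 was 4.90 ± 0.202 in the control against 4.58 ± 0.490 in the exosome libraries (SD, n = 3), and the groups overlapped. Of the helicase cofactors, EIF4H was at 334, 330.2 and 322 FPKM in the control and at 322, 320.3 and 318 FPKM in the exosome libraries. The EIF4H groups did not overlap, by a margin of under 1 FPKM (log2 change -0.04, adjusted p = 0.710), and equal FPKM sums turned the sign. EIF4B was at 153 ± 4.33 and 156 ± 8.81 FPKM. EIF4A3, a related helicase of the exon junction complex on spliced mRNA, was at 35.4 ± 0.647 and 35.1 ± 0.638 FPKM.

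Of the proteins that hold eIF4E back, EIF4EBP1 (4E-BP1), a target of mTORC1, was by far the most abundant. It was at 403, 386 and 375 FPKM in the control and at 394, 412 and 346 FPKM in the exosome libraries, with exosome libraries on both sides of the control range (log2 change -0.02, adjusted p = 0.943; 0.03 with equal FPKM sums and 0.01 with quantile normalization). Within each library EIF4E stood at 0.103 ± 0.00345 of EIF4EBP1 in the control against 0.108 ± 0.0113 in the exosome group. EIF4EBP2 was at 15.8, 16.3 and 19.6 FPKM in the control and at 19.4, 16.6 and 18.8 FPKM with exosomes (log2 change 0.08, adjusted p = 0.741). EIF4EBP3 was at 10.4, 8.04 and 6.26 FPKM in the control and at 8.37, 8.27 and 8.15 FPKM in the exosome libraries. The controls of EIF4EBP3 varied by a coefficient of 25.5% and the exosome libraries by 1.33%, around the same mean of 8.25 and 8.26 FPKM. EIF4ENIF1 (4E-T), which takes eIF4E to processing bodies, was at 17.8 ± 0.893 and 17.7 ± 1.61 FPKM.

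The elongation factors were the most abundant members. EEF1A (ENSSSCG00000004489), which delivers aminoacyl-tRNA, was at 10029, 10197 and 10445 FPKM in the control and at 8881, 10533 and 9628 FPKM in the exosome libraries. Exosome replicates 1 and 3 lay below all controls and exosome replicate 2 above them (log2 change -0.08, adjusted p = 0.630; 0.05 with quantile normalization). EEF1A alone made up 1.40% ± 0.0397 of all FPKM in the control against 1.38% ± 0.102 in the exosome libraries (SD, n = 3). The table does not say which of the genes for eEF1A this row holds, and the gene has near-identical copies, so its level is uncertain. EEF1B2, part of the exchange factor that recharges eEF1A with GTP, was at 764, 741 and 754 FPKM in the control and at 777, 753 and 891 FPKM in the exosome libraries, where exosome replicate 3 was far above the rest (log2 change 0.10, adjusted p = 0.574; 0.02 without exosome replicate 3). EEF1G, the scaffold of that exchange factor, was at 1062 ± 13.4 and 1075 ± 39.6 FPKM (log2 change 0.02), and its further subunit EEF1D, identified by gene ID outside the 49, at 191 ± 6.23 and 201 ± 8.79 FPKM (log2 change 0.07, adjusted p = 0.570 in limma).

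EEF2, the translocase, was at 1463, 1492 and 1469 FPKM in the control and at 1448, 1594 and 1463 FPKM in the exosome libraries, with exosome replicate 2 the highest of the 6 (log2 change 0.02, adjusted p = 0.868; -0.02 without exosome replicate 2). EEF2K, the kinase that inactivates eEF2, was at 22.1, 24.3 and 23.6 FPKM in the control and at 22.4, 22.1 and 22.8 FPKM in the exosome libraries, the groups overlapping (log2 change -0.05, adjusted p = 0.722). The ratio of EEF2 to EEF2K was 63.2 ± 2.65 in the control against 67.0 ± 4.53 in the exosome libraries. The 3 symbols EIF2C2, EIF2C3 and EIF2C4 match by their letters and are older names of the Argonaute genes of small RNA silencing. EIF2C2, listed as AGO2 in the reference names, was at 23.0 ± 1.03 and 23.1 ± 2.14 FPKM, and without these 3 genes the median log2 change of the other 46 members was again 0.02.

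Without overlap between the groups were 6 of the 49 members, 4 higher (EIF5B, EIF3H, EIF2A and EIF2S3) and 2 lower (EIF4G3 and EIF4H), against 18.7% of all genes tested (8.29% higher and 10.4% lower). The share of members, at 6 of 49, was no larger than that of all genes. Leaving out exosome replicate 2 raised the members at an unadjusted p under 0.05 in limma from 1 to 9, of which 5 were higher (EIF1AX, EIF4A2, EIF5B, EIF3M and EIF3J) and 4 lower (EIF1, EEF1A, EIF2AK3 and EIF4G2), while 22% of all genes tested then lay under that p. Leaving out another library gave 0 members without control replicate 1 (9.98% of all genes), 1 without control replicate 2 (7.39%), 0 without control replicate 3 (8.18%) and 1 each without exosome replicate 1 (7.39%) or 3 (12.1%). Without exosome replicate 2, limma put 0 of the 49 and 297 of all genes (2.74%) under an adjusted p of 0.05. Without control replicate 3, 1 gene (0.00922%) did and 0 of the 49. The exosome libraries varied more than the controls in 36 of the 49 members (73.5%) and in 66.7% of all genes tested. The median coefficient of variation of the members was 5.34% in the exosome libraries, against 2.57% in the control.

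Genes that work beside these factors also had no call after adjustment. Of 56 genes tested in 8 lists, 0 passed in limma. There were 2 higher and 1 lower gene whose unadjusted p was under 0.05, where 5.06% of all genes tested were higher and 7.5% lower at that p. Of 14 listed genes of the integrated stress response, the program that follows eIF2 phosphorylation, 11 were tested and held the 2 higher genes. The log2 changes of the 11 ran from -0.19 to 0.19, with a median of 0.08. Of the 11, 8 were positive, where 5338 of all 10846 genes tested were. VLDLR, a lipoprotein receptor, was at 43.3 ± 1.29 and 49.6 ± 2.03 FPKM in control and exosome libraries (SD, n = 3; log2 change 0.19, adjusted p = 0.270), and CHAC1, which degrades glutathione, at 41.7 ± 1.73 and 47.6 ± 4.79 FPKM (log2 change 0.18, adjusted p = 0.393). The unadjusted p of VLDLR was under 0.05 in all 14 alternatives, from 0.00304 to 0.0352, and that of CHAC1 in 7 of them, from 0.00599 to 0.140. ATF4, the transcription factor of that program and singled out here with its values known, stood at 644 ± 11.3 and 640.0 ± 37.3 FPKM. Of 13 rows for partners of the poly(A) tail and the cap, with GIGYF2 in 2 rows, PAIP1, a stimulator of poly(A)-binding protein, was the 1 lower gene, at 35.2 ± 0.787 and 32.5 ± 0.664 FPKM (log2 change -0.11, adjusted p = 0.396). Its unadjusted p of 0.0496 in limma rose above 0.05 in 10 of the 14 alternatives, up to 0.247 with equal FPKM sums. PDCD4, an inhibitor of eIF4A, was at 12.7 ± 0.372 and 14.3 ± 1.39 FPKM (log2 change 0.16).

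In mTORC1 signalling, which drives phosphorylation of 4E-BP1, 0 of 9 genes lay under an unadjusted p of 0.05. MLST8, a subunit of the kinase complex, was at 5.26 ± 0.211 and 4.52 ± 0.508 FPKM without overlap (log2 change -0.19, adjusted p = 0.432), and MTOR, listed as FRAP1, at 14.3 ± 0.828 and 15.2 ± 0.817 FPKM. Of 6 termination and recycling genes tested, 5 had positive changes in the values as deposited, where 5338 of all 10846 genes tested did. ABCE1, which splits spent ribosomes, was at 60.5 ± 0.873 and 65.8 ± 3.26 FPKM (log2 change 0.12, adjusted p = 0.402), and the release factor ETF1 at 97.4 ± 0.715 and 104 ± 7.71 FPKM (log2 change 0.10). The groups of both did not overlap, as for 18.7% of all genes tested (8.29% higher). Of 8 mitochondrial translation factors tested 6 were positive, to be read beside the same count of all genes. GFM2 and GUF1 had log2 changes of 0.20 and 0.12, and no factor of this list had an unadjusted p under 0.05. DHPS and DOHH, the enzymes that make the hypusine of eIF5A, had log2 changes of -0.09 and -0.02. DPH3 and DPH6, which serve the diphthamide of eEF2, had 0.10 and -0.08, and the selenocysteine factors SECISBP2 and SEPHS2 had -0.08 and 0.03. EIF5, EIF5A, EIF6 and the b, c and f subunits of eIF3 are not analysed here.

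Beside the factors stand the ribosomal proteins and the enzymes that charge tRNAs. Of 65 rows for cytosolic ribosomal proteins, 3 (4.62%) lay at an unadjusted p under 0.05 in limma (1 higher, 2 lower), against 12.6% of all genes tested. After adjustment 0 passed, with a median log2 change of 0.01 and a median size of 0.035. The count at that p was 12 higher and 0 lower with equal FPKM sums, where 13.9% of all genes lay there (1090 higher and 420 lower). With quantile normalization it was 12 higher and 2 lower, against 12.5% of all genes (651 higher and 706 lower). Without exosome replicate 2 it was 4 higher and 3 lower, against 22% of all genes (1106 higher and 1280 lower). Of 16 rows for cytosolic aminoacyl-tRNA synthetases, 2 (12.5%) lay at that p in the values as deposited, against 12.6% of all genes. Both were higher and 0 passed, with a median of 0.05 and a median size of 0.063. Whether the translation factors differ from these families was not tested.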

How the data were processed

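Per the submitters' processing notes, the authors made the deposited FPKM with TopHat and Cufflinks on Sscrofa11.1 after demultiplexing with bcl2fastq 1.8.4. No header names the unit. The sources used here do not give versions of TopHat and Cufflinks, the annotation or any filter. The table had 10916 rows, 10915 with values, the lowest 0.0882 FPKM, so a gene silent in a library cannot be seen and depth is unknown.

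Columns were matched to samples by title. On the scale of log2(FPKM + 1), the 10846 genes averaging 1 FPKM or more over the libraries were tested with limma 3.58.1 in R 4.3.3 (intensity trend, two-sided, Benjamini-Hochberg over all genes tested, threshold 0.05). A fold change on this scale understates that of low genes. The code was tested on simulated data. The members, lists and comparisons were chosen with earlier results of these data known. Named in full are members with the smallest p or highest mean of a complex, an unadjusted p under 0.05, or in a fixed paralog pair, and, of other genes, the 2 with the smallest p in each list. Rows without a symbol (1038) were named by gene ID from the reference names, and locations came from RefSeq by symbol (45 of 49 matched). Alternatives were a pseudocount of 0.1, other filters (none, 5 FPKM), equal FPKM sums or medians, quantile normalization, no trend, the replicate number as a block, and each library left out. A description of pyrimidine tracts at start sites was not run, since no promoter sequences were at hand. Figures used Python 3.11.15 and matplotlib 3.10.9.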

Additional observations from a re-analysis of the deposited data

How the results depend on the processing

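No member passed an adjusted p of 0.05 in limma under any of the 14 alternatives, and the lowest adjusted p of a member was 0.0526 (EIF1 without exosome replicate 2). With equal FPKM sums 6 members were higher at an unadjusted p under 0.05 and the members' median log2 change was 0.070; with quantile normalization these were 2 and 0.036. When 1 library was left out, the members at that p ranged from 0 to 5 higher and from 0 to 4 lower, the median from 0.0063 to 0.030, and all genes past an adjusted p of 0.05 from 0 to 297. In the pathway lists (56 genes), 6 were higher at that p with equal FPKM sums, 4 after quantile normalization and 1 when the intensity trend was dropped. Of all genes (10846 tested as deposited), 1090, 651 and 562 were higher at that p in these 3 settings. In these 3, with equal medians and with the replicate block, 0 list genes were lower, where 420 to 812 of all genes were. With 1 library left out the list counts were 1 to 7 higher and 0 to 5 lower. Those of all genes were then 323 to 1106 higher and 442 to 1280 lower. The cause of these shifts was not tested. Fitting the replicate number as a block left 0 genes past the threshold, with EIF5B at an unadjusted p of 0.0472 in limma. Deviations of same-numbered libraries correlated at 0.16, 0.14 and -0.07 across genes. Control replicates 1 and 2 correlated best with the exosome library of their own number, and control replicate 3 with exosome replicate 2 (0.17). These values do not settle whether the numbers mark pairs. The labels do not say what a number marks, so the numbers were not taken as pairs. Low genes such as EIF2C3, EIF2AK2 and EIF4EBP3 had the widest intervals, and counting error cannot be given without counts.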
